A study of Mus musculus with 10 samples.

Results

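The Ifit genes encode interferon-induced proteins with tetratricopeptide repeats, and 6 of them were examined here: Ifit1, Ifit2, Ifit3, Ifit3b, Ifit1bl1 and Ifit1bl2. They were taken by gene name from a table of 55487 genes, in which each name stands on 1 row. The family was chosen by its measured values, since it was already known to be higher in RhoB-/- libraries. The levels of the 6 genes in the 2 genotypes are therefore given as a description, with no test. RNA was extracted from intestinal epithelial cells (IECs) of the colon of C57BL/6J mice, with no treatment given in the labels, in 5 WT libraries and 5 RhoB-/- libraries. The RhoB-/- mice were homozygous knockouts of Rhob, the gene of a small GTPase, made at a model organism centre. The methods describe WT males bought from another institution, and if these were the WT mice sequenced, genotype and source of the mice cannot be told apart. Mice of the study were used at 6 to 8 weeks of age unless it said otherwise. The epithelium was shaken off the colon after EDTA and DTT and was not sorted. The labels do not tie each library to its own mouse, so errors and p-values measure the spread between these libraries.

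IFIT proteins are made when a cell has sensed viral RNA or DNA or has received interferon. IFIT1 holds the capped end of RNAs that lack ribose methylation beside the cap and keeps them from being translated, IFIT2 binds AU-rich RNA, and human IFIT3 binds both partners and steadies IFIT1. IFIT proteins can also bind eIF3, a factor that brings the ribosome to mRNA. Type I interferon signals through IFNAR1 and IFNAR2, and type III interferon, the main form at gut epithelium, through IFNLR1 and IL10RB. Both lead to ISGF3, a transcription factor complex, which binds an interferon-stimulated response element near the genes it turns on.

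The 6 genes form 1 cluster of 99.3 kb on chromosome 19 (GENCODE M21 annotation of GRCm38, chr19:34550694-34650009), and 4 of them lie on the plus strand and 2 on the minus strand. In order along the chromosome they are Ifit2 (chr19:34550694-34576419, plus), Ifit3 (chr19:34583531-34588731, plus), Ifit1bl1 (chr19:34592891-34601956, minus), Ifit3b (chr19:34607970-34613401, plus), Ifit1bl2 (chr19:34617049-34640743, minus) and Ifit1 (chr19:34640871-34650009, plus). The starts of Ifit1bl2 and Ifit1 face away from each other with 127 bases between them. Ifit1, Ifit3, Ifit3b and Ifit1bl1 have 2 exons in every annotated transcript, Ifit1bl2 has 3, and Ifit2 has 3 or 4.

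The sequence before the transcript start was searched for the core of the interferon-stimulated response element, GAAA followed after any 2 bases by another GAAA, on both strands, in the 250 upstream bases of RefSeq promoter windows of GRCm38.p6. A match was found for 5 of the 6 Ifit genes and for 7 of the 19 other ISGF3 target genes with a window, against 936 of 27025 genes (3.46%) and 978 of 32851 windows (2.98%) in all. Of all windows, 0.18% held 2 or more matches, which may overlap. Neither window of Ifit2 nor the alternative downstream window of Ifit1bl2 held these letters. The sequences that carry the matches are printed 5′ to 3′ in lower case, with the matches in capitals. Those of Ifit3, Ifit3b and Ifit1bl1 end at the last base before the RefSeq start and read in the direction of the gene. The last is the whole stretch between Ifit1bl2 and Ifit1 as GENCODE annotates them, read in the direction of Ifit1. Distances of matches are counted from RefSeq starts.
Ifit3, chr19:34583329-34583528, plus strand: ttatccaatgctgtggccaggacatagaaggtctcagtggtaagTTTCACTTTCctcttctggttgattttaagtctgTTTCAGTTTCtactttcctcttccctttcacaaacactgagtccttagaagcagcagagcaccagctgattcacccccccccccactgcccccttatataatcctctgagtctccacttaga
Ifit3b, chr19:34607757-34607956, plus strand: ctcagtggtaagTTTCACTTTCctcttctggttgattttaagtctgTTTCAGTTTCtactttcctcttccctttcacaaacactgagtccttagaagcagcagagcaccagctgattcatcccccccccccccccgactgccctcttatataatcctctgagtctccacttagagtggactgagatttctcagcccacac
Ifit1bl1, chr19:34601969-34602148, minus strand: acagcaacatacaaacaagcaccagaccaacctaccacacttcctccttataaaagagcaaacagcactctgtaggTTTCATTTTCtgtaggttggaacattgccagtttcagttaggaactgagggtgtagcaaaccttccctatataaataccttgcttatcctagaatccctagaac
Ifit1bl2 to Ifit1, chr19:34640744-34640870, plus strand: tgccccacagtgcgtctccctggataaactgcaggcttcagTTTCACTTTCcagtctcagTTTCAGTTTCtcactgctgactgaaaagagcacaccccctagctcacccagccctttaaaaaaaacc
Ifit3 carried 2 matches that began 156 and 122 bases before its start, and Ifit3b the same 2 sequences at 188 and 154 bases. The upstream windows of these 2 genes were identical at 217 of 218 aligned bases (99.5%), with 64 gap positions left out of this count. Ifit1bl1 had 1 match, 104 bases before its start, and its alternative downstream window, not printed, held 1 more. The 2 matches between Ifit1bl2 and Ifit1 are shared by both genes. They began 104 and 85 bases before the RefSeq start of Ifit1 (chr19:34640889) and 70 and 51 bases before that of Ifit1bl2. This RefSeq start of Ifit1 lies past its GENCODE start (chr19:34640871), where the printed stretch ends, so the matches are closer to the GENCODE start. A match is a string of letters and was not tested as a binding site, and its absence before Ifit2 says nothing about the factor.

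How alike the genes are limits how well reads can be assigned to them. The coding sequences of Ifit3 and Ifit3b were identical at 1198 of 1209 aligned bases (99.1%), and 31.7% of the 100-base windows of the Ifit3 transcript occur unchanged in that of Ifit3b. The authors' quantification could split such reads between the 2 genes, so their separate levels are less certain than their sum. Ifit1bl1 and Ifit1bl2 were 89.8% identical, with 0.524% of the windows of Ifit1bl1 shared. Ifit1 was 81.1% identical to Ifit1bl1 and 80.7% to Ifit1bl2, and 3.29% of its windows occur in the Ifit1bl2 transcript. For the other pairs the identity was 70.6% to 75.8%, and no 100-base window was shared.

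The deposited values are TPM, a measure of transcript abundance scaled for transcript length and library size, so that levels can be set side by side between genes. TPM keeps no read depth, so the counting error of each value is unknown. Rhob was 170.52 to 388.71 TPM in the WT libraries and 0.09 to 0.57 TPM in RhoB-/- replicates 1 to 4, but 110.87 TPM in the library labelled RhoB-/- replicate 5, which goes against its label. It was kept as labelled, and results are also given without it. Mitochondrial genes took 17.5% to 26.5% of TPM in WT and 10.3% to 22.4% in RhoB-/- libraries. Epithelial markers summed to 26400 to 30500 TPM in WT and 26200 to 43200 TPM in RhoB-/- libraries, led by Car1, a carbonic anhydrase of colonocytes. Over all 12870 genes with a mean of at least 1 TPM, 718 (5.58%) were higher and 918 (7.13%) lower in RhoB-/-, at an adjusted p below 0.05 (limma on log2(TPM + 1), Benjamini-Hochberg) and a fold change above 1.5. Without the library labelled RhoB-/- replicate 5 these counts were 564 and 739.

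Every Ifit gene was higher in each RhoB-/- library than in any WT library. Differences are given on the scale of log2(TPM + 1), where the added 1 shrinks the change of genes at low levels, together with ratios of mean TPM. The 6 differences ran from 2.30 for Ifit1bl2 to 4.54 for Ifit1, with a median of 4.12, against a median of -0.13 over all tested genes. Such a separation of the groups, with RhoB-/- higher, was found for 768 of the tested genes (5.97%), and with RhoB-/- lower for 1100 (8.55%). All 6 passed the filter on mean TPM, but Ifit2 and Ifit3b, with WT means under 1 TPM, passed only through the RhoB-/- libraries, and the count of 6 is given as a description. In these bulk libraries, more cells that express a gene and more RNA per cell cannot be told apart.

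**Figure D1:**
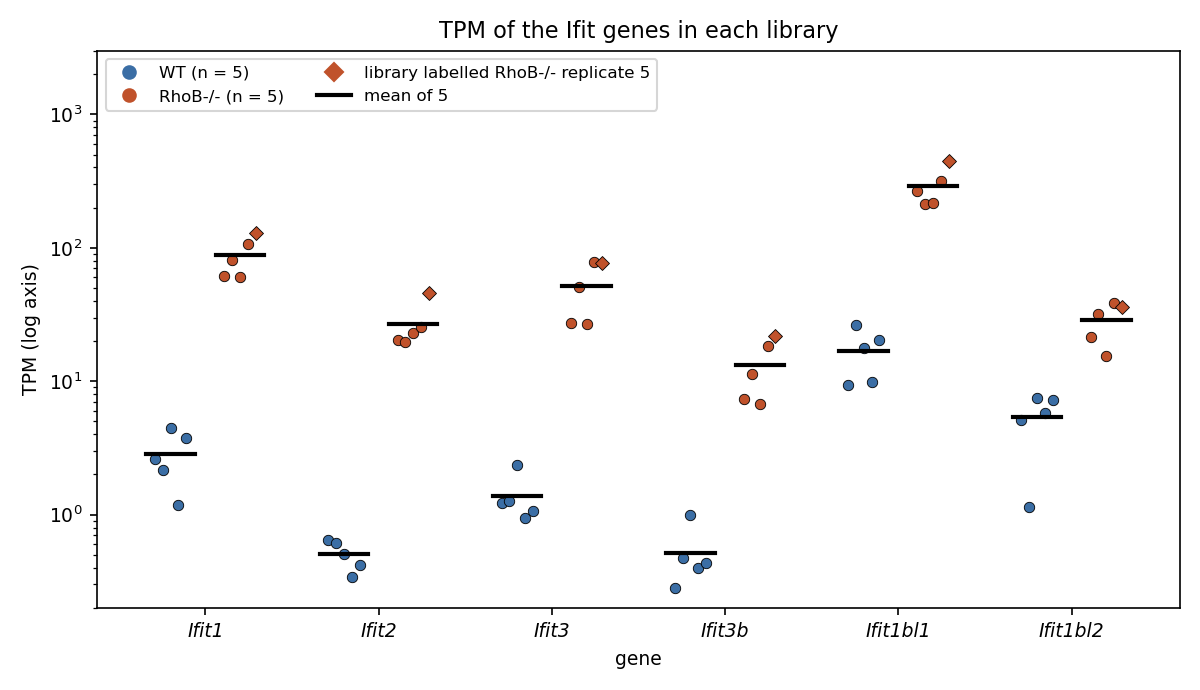
TPM of the 6 Ifit genes (log axis) in each of the 5 WT and 5 RhoB-/- libraries, with the mean of each group as a bar and the library labelled RhoB-/- replicate 5 as a diamond. The groups of every gene lie apart, most narrowly for Ifit1bl2, whose lowest RhoB-/- value was 2.08 times its highest WT value.

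Ifit1, which recognises RNA caps without ribose methylation, was 2.60, 2.15, 4.49, 1.18 and 3.73 TPM in WT replicates 1 to 5. In RhoB-/- replicates 1 to 5 it was 61.20, 80.55, 60.04, 106.89 and 129.21 TPM. The lowest RhoB-/- value was thus 13.4 times the highest WT value. The mean was 2.83 ± 1.30 TPM (SD, n = 5) in WT against 87.6 ± 30.0 TPM (SD, n = 5) in RhoB-/-, a ratio of 30.9, and the ratio was 27.3 without the library labelled RhoB-/- replicate 5. By size of difference Ifit1 ranked 9 of the 12870 tested genes.

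Ifit1bl1, a close relative of Ifit1 whose own role is less well known, was the most abundant member in every library. In WT replicates 1 to 5 it was 9.40, 26.59, 17.68, 9.80 and 20.31 TPM. In RhoB-/- replicates 1 to 5 it was 266.91, 211.80, 217.35, 316.55 and 443.89 TPM. WT replicates 1 and 4 were low and WT replicate 2 high, and the RhoB-/- libraries all lay far above them. Mean TPM was 16.8 ± 7.29 (SD, n = 5) in WT against 291 ± 95.3 (SD, n = 5) in RhoB-/-, a ratio of 17.4, or 15.1 without the library labelled RhoB-/- replicate 5. With this level Ifit1bl1 ranked 396 among the tested genes by mean TPM in RhoB-/- libraries, whereas Ifit1 ranked 1279.

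Ifit1bl2, the third member of the Ifit1 group, differed least. It was 5.12, 1.14, 7.45, 5.74 and 7.27 TPM in WT replicates 1 to 5. In RhoB-/- replicates 1 to 5 it was 21.58, 31.71, 15.51, 38.86 and 36.28 TPM. WT replicate 2, the library with the most Ifit1bl1 in its group, had the least Ifit1bl2. The means were 5.34 ± 2.55 TPM (SD, n = 5) and 28.8 ± 9.93 TPM (SD, n = 5), a ratio of 5.39, or 5.04 without the library labelled RhoB-/- replicate 5. Of the 100-base windows of Ifit1bl1, only 0.524% occur in the Ifit1bl2 transcript. The sum of Ifit1bl1 and Ifit1bl2 was 22.1 ± 6.55 TPM (SD, n = 5) in WT against 320 ± 102 TPM (SD, n = 5) in RhoB-/-, a ratio of 14.5.

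Ifit2, which binds AU-rich RNA, was hardly present in WT libraries, at 0.65, 0.61, 0.51, 0.34 and 0.42 TPM in replicates 1 to 5. In RhoB-/- replicates 1 to 5 it was 20.52, 19.57, 23.02, 25.49 and 45.54 TPM. Replicates 1 to 4 of RhoB-/- lay close together, and the library labelled RhoB-/- replicate 5 stood well above them. The means were 0.506 ± 0.129 TPM (SD, n = 5) and 26.8 ± 10.7 TPM (SD, n = 5). Their ratio of 53.0 was the highest of the 6, and it was 43.8 without that library. On the log2(TPM + 1) scale the difference was 4.14, below that of Ifit1, because the added 1 outweighs the WT level.

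Ifit3, whose human counterpart pairs with IFIT1 and IFIT2, was 1.23, 1.27, 2.36, 0.94 and 1.06 TPM in WT replicates 1 to 5. In RhoB-/- replicates 1 to 5 it was 27.17, 50.96, 26.84, 78.10 and 76.73 TPM. The RhoB-/- libraries fell into a low pair, replicates 1 and 3, and a high pair, replicates 4 and 5, with replicate 2 between. The means were 1.37 ± 0.568 TPM (SD, n = 5) and 52.0 ± 25.2 TPM (SD, n = 5), a ratio of 37.9, or 33.4 without the library labelled RhoB-/- replicate 5.

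Ifit3b, its near-identical copy, was 0.28, 0.47, 0.99, 0.40 and 0.43 TPM in WT replicates 1 to 5. In RhoB-/- replicates 1 to 5 it was 7.41, 11.34, 6.74, 18.33 and 21.90 TPM. It showed the same low and high libraries as Ifit3, at a lower level. The means were 0.514 ± 0.275 TPM (SD, n = 5) and 13.1 ± 6.72 TPM (SD, n = 5), a ratio of 25.6, or 21.3 without the library labelled RhoB-/- replicate 5. Ifit3 exceeded Ifit3b in all 10 libraries, by 2.35 to 4.39 times in WT and 3.50 to 4.49 times in RhoB-/-. Added up, the 2 genes were 1.89 ± 0.831 TPM (SD, n = 5) in WT against 65.1 ± 31.8 TPM (SD, n = 5) in RhoB-/-, a ratio of 34.5.

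The order of the genes differed between the genotypes. In WT libraries mean TPM ran downwards from Ifit1bl1 through Ifit1bl2, Ifit1 and Ifit3 to Ifit3b and Ifit2. In RhoB-/- libraries it ran from Ifit1bl1 through Ifit1, Ifit3, Ifit1bl2 and Ifit2 to Ifit3b. Ifit3b and Ifit2 were not separated in WT, where Ifit2 was the higher in 2 of 5 libraries, and Ifit1bl2 and Ifit2 were not separated in RhoB-/-, where Ifit1bl2 was the higher in 3 of 5. Ifit1bl2 exceeded Ifit1 in 4 of 5 WT libraries, WT replicate 2 being the exception, and in 0 of 5 RhoB-/- libraries. Likewise Ifit1bl2 exceeded Ifit3 in 4 of 5 WT and 0 of 5 RhoB-/- libraries. The other neighbours in each order kept it in 5 of 5 libraries.

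The summed TPM of the 6 genes was 27.3 ± 7.76 (SD, n = 5) in WT against 500 ± 167 (SD, n = 5) in RhoB-/- libraries, a ratio of 18.3, or 16.0 without the library labelled RhoB-/- replicate 5. Ifit1bl1 made up 59.7% ± 13.5 (SD, n = 5) of the sum in WT and 58.7% ± 5.65 (SD, n = 5) in RhoB-/-, so its share differed by less than the spread between libraries. Ifit1bl2 made up 21.1% ± 10.5 (SD, n = 5) in WT against 5.81% ± 1.40 (SD, n = 5) in RhoB-/-. In WT replicate 2 it was 3.54%, below every RhoB-/- library, and in the other WT libraries 21.9% to 31.2%. Ifit1 took 10.2% ± 3.50 (SD, n = 5) in WT against 17.5% ± 1.73 (SD, n = 5) in RhoB-/-. Ifit2 took 1.98% ± 0.819 (SD, n = 5) and 5.38% ± 0.914 (SD, n = 5), and for these 2 genes the ranges of the groups did not overlap. Ifit3 took 5.13% ± 1.61 (SD, n = 5) and 10.1% ± 2.92 (SD, n = 5), and Ifit3b 1.87% ± 0.698 (SD, n = 5) and 2.52% ± 0.598 (SD, n = 5), with overlapping ranges.

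**Figure D2:**
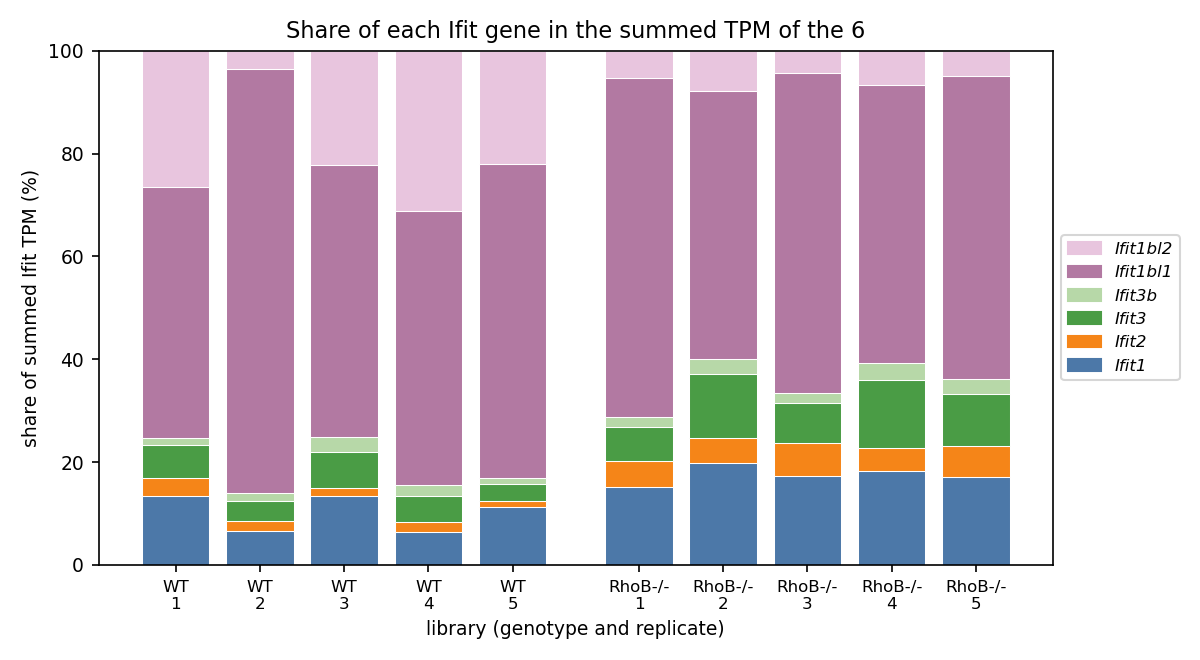
Share of each Ifit gene in the summed TPM of the 6, in percent, 1 bar per library. Ifit1bl1 takes 48.8% to 82.5% of each WT bar and 52.2% to 65.9% of each RhoB-/- bar, and the share of Ifit1bl2 is above 20% in 4 WT libraries and at most 7.81% in the RhoB-/- libraries.

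Within a genotype the members did not all vary together. The coefficient of variation between libraries was 25.5% to 53.6% in WT and 32.7% to 51.1% in RhoB-/-, highest for Ifit3b in both. RhoB-/- replicates 4 and 5 held the 2 highest values of all 6 genes, the library labelled RhoB-/- replicate 5 being the highest for 4 of them, and RhoB-/- replicate 3 was the lowest for 4. In WT, replicate 3 was the highest for 4 genes. Deviations from the genotype mean on the log2(TPM + 1) scale, averaged over the 6 genes, ran from -0.27 in WT replicate 4 to 0.38 in WT replicate 3, and from -0.55 in RhoB-/- replicate 3 to 0.67 in the library labelled RhoB-/- replicate 5. Over the 10 libraries these deviations correlated most between Ifit3 and Ifit3b (Pearson r = 0.97). Reads could be split between these 2 genes, but no reads were examined, and the part of this in the correlation was not tested. Ifit1 followed Ifit3 with r = 0.80, Ifit2 followed Ifit3b with r = 0.67, and Ifit1bl1 and Ifit1bl2 had r = -0.13. WT replicate 2 deviated by 0.74 for Ifit1bl1 and -1.42 for Ifit1bl2, farther than any other value of these 2 genes. The points of each correlation share library and depth, and no p is given.

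**Figure D3:**
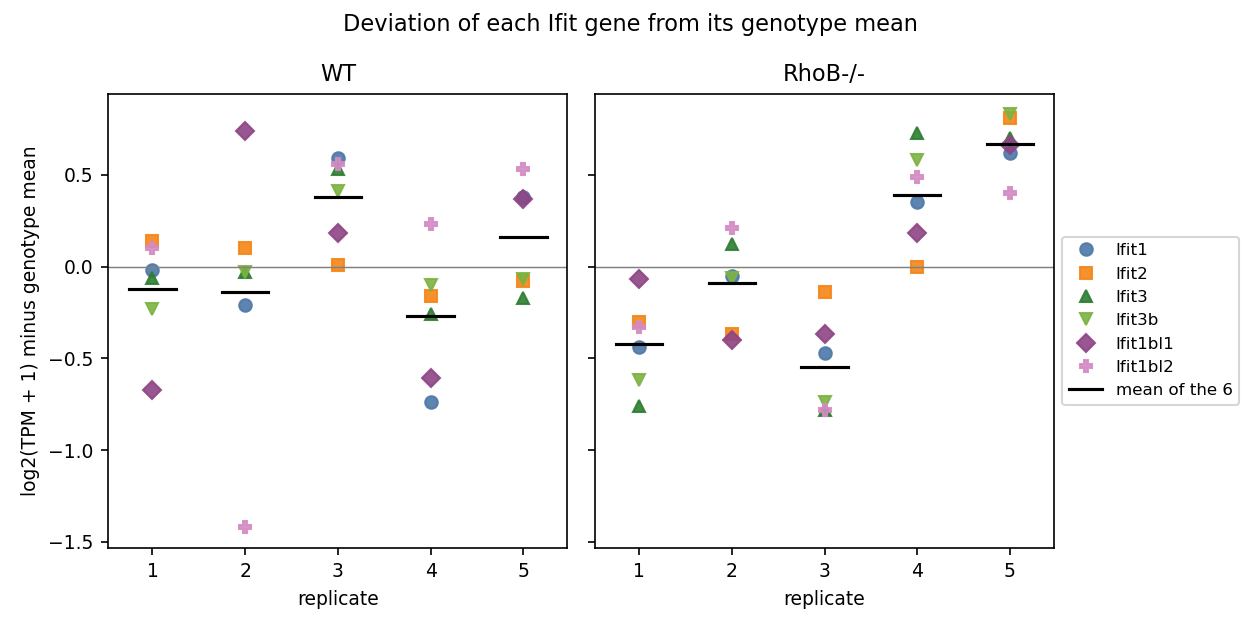
Deviation of each Ifit gene from its genotype mean on the log2(TPM + 1) scale, by replicate, for WT (left) and RhoB-/- (right), with the mean of the 6 genes as a bar. In RhoB-/- the genes lie mostly on 1 side of 0 in each of replicates 1, 3, 4 and 5, while in WT replicate 2 Ifit1bl1 (0.74) and Ifit1bl2 (-1.42) lie on opposite sides.

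The 5 other tested genes most like the mean of the 6 members, over the 10 libraries after each genotype mean was subtracted, were Stk10 (a kinase of lymphocyte migration, r = 0.958), Mogat2 (an enzyme of dietary fat uptake, r = 0.944), Srxn1 (sulfiredoxin, an antioxidant enzyme, r = 0.927), Clec2e (a C-type lectin, r = 0.922) and Hkdc1 (a hexokinase, r = 0.921). These are the highest values picked out of all tested genes and rest on 10 libraries. Of these 5, Stk10, Srxn1, Clec2e and Hkdc1 were called higher in RhoB-/-, with log2 differences of 1.17, 0.79, 1.51 and 0.80, and Mogat2 was not called, at 0.46. Among the members themselves the likeness to that mean ran from 0.592 for Ifit1bl1 to 0.957 for Ifit3b. Each member is part of that mean, which raises its r, so these values cannot be set beside those of the other genes.

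The genes on either side of the cluster differed in both directions. Lipa, the lysosomal acid lipase gene next to Ifit2, rose from 12.9 ± 1.61 TPM (SD, n = 5) to 20.5 ± 4.65 TPM (SD, n = 5), a log2 difference of 0.61 (standard error 0.15, adjusted p = 0.0136, limma). That call was lost without WT replicate 1 (0.54), RhoB-/- replicate 4 (0.57) or the library labelled RhoB-/- replicate 5 (0.50). Fas, a death receptor gene farther out on that side, rose by 0.74 (standard error 0.16, adjusted p = 0.00736, limma). Slc16a12, a carrier gene next to Ifit1, fell by 1.59 on the log2 scale (standard error 0.30, adjusted p = 0.00426, limma), from 3.22 ± 1.92 TPM (SD, n = 5) to 0.302 ± 0.230 TPM (SD, n = 5), a ratio of 0.0938. Stambpl1, the outermost of the neighbours on the Lipa side, fell by 0.76 (standard error 0.14, adjusted p = 0.00281, limma). Pank1 (-0.30) and Kif20b (-0.54) were not called, although Kif20b was called lower without RhoB-/- replicate 3 (-0.70). Acta2 and Ch25h were below the filter. Of the 8 neighbours listed, 6 were thus tested, 2 rose and 2 fell. The ratios of the genes that rose, Fas (1.81) and Lipa (1.59), were below that of Ifit1bl2 (5.39). Slc16a12 differed from WT by a larger factor than Ifit1bl2, in the other direction, but its RhoB-/- mean was under the filter. It passed the filter only through the WT libraries and was not tested at a mean of at least 5 TPM. On the log2(TPM + 1) scale its change was smaller than the 2.30 of Ifit1bl2.

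**Figure D4:**
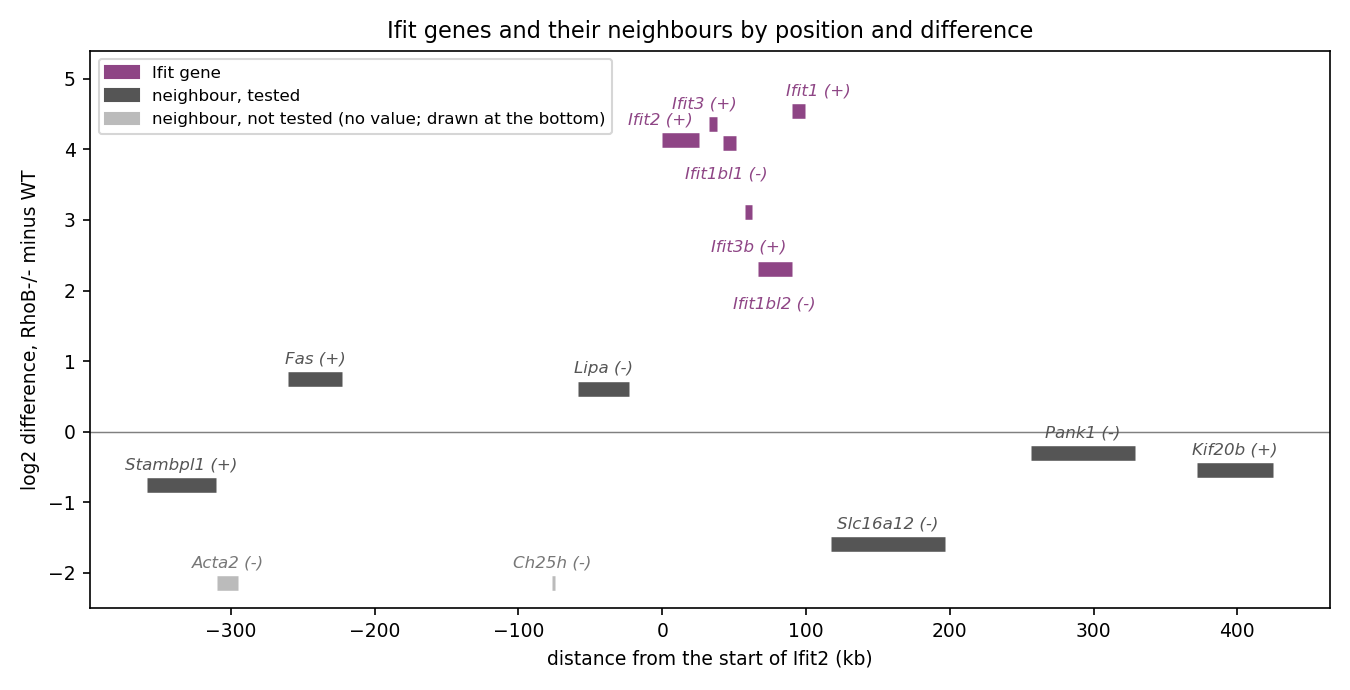
Log2 difference (RhoB-/- minus WT) of the Ifit genes and 8 neighbours against distance from the start of Ifit2 in kb, each gene drawn to its length, with its strand beside its name. The 6 Ifit genes lie between 2.30 and 4.54, and the 6 tested neighbours between -1.59 and 0.74.

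The genes that act before the Ifit genes were followed in hand-made lists. The 10 interferon ligand genes on the list were at or near 0, and none reached the filter. Ifnb1, Ifna1, Ifna2, Ifna4, Ifna5, Ifne and Ifnl3 were listed at 0 in all 10 libraries. Ligand genes not on the list were not examined, and interferon made by cells outside these libraries was not measured. Ifng, the type II interferon gene of lymphocytes, was 0.678 ± 0.397 TPM (SD, n = 5) in WT against 0.526 ± 0.378 TPM (SD, n = 5) in RhoB-/-, and Ifnl2 was at most 0.25 TPM in any library. Ifnk was listed at 0 in all WT libraries and at up to 0.44 TPM in RhoB-/-. Of 6 receptor genes, 1 rose, Ifnlr1, the type III interferon receptor, from 3.55 ± 0.636 TPM (SD, n = 5) to 6.47 ± 1.68 TPM (SD, n = 5), a log2 difference of 0.70 (standard error 0.16, adjusted p = 0.0118, limma). Ifnar1 (0.22), Ifnar2 (-0.01), Il10rb (0.37), Ifngr1 (0.48) and Ifngr2 (0.52) were not called.

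Genes of ISGF3 subunits rose. Stat2 went from 12.9 ± 2.82 TPM (SD, n = 5) to 55.4 ± 10.6 TPM (SD, n = 5), a log2 difference of 2.03 (standard error 0.16, adjusted p = 6.53e-06, limma). Irf9, which binds the DNA element, rose by 1.55 (standard error 0.11, adjusted p = 1.97e-06, limma). The kinases Jak1 (0.06), Jak2 (0.52) and Tyk2 (-0.04) were not called. Among 6 interferon regulatory factors tested, Irf7, which amplifies the response, rose by 3.05 (adjusted p = 3.89e-06, limma), from 54.3 ± 19.4 TPM (SD, n = 5) to 445 ± 104 TPM (SD, n = 5). Irf1 was called higher at 0.66 (adjusted p = 0.0221, limma), a call lost without WT replicate 1 (0.56), WT replicate 2 (0.65), WT replicate 4 (0.60), RhoB-/- replicate 1 (0.62) or the library labelled RhoB-/- replicate 5 (0.60). Irf3, which can drive Ifit genes without interferon, was at 0.01.

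Of 10 genes listed by hand as restraining the response, 4 rose, and their roles were not tested here. Usp18, which blocks signalling at IFNAR2, rose from 1.36 ± 0.519 TPM (SD, n = 5) to 44.6 ± 13.0 TPM (SD, n = 5), a log2 difference of 4.25 (standard error 0.20, adjusted p = 1.14e-07, limma), within the range of the Ifit genes. Nlrc5, whose WT mean of 0.930 TPM was under the filter, rose by 3.10, Trex1, a DNase that removes cytosolic DNA, by 1.56, and Socs1, which blocks JAK kinases, by 0.89 (adjusted p from 1.69e-06 to 0.00879, limma). Socs3, at 7.69 to 56.48 TPM in RhoB-/-, was not called.

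Of 13 sensors of foreign nucleic acid and their signalling partners that were tested, 7 rose. These were Zbp1 (3.57), Dhx58 (2.58), Ddx58, the RIG-I gene (1.89), Trim25 (1.71), Ifih1, the MDA5 gene (1.59), Eif2ak2, the PKR gene (1.09), and Tlr3 (0.74), with adjusted p from 5.23e-07 to 0.00328 (limma). Mavs (-0.06), Tbk1 (0.47), Cgas (-0.14), Sting1 (-0.16), Aim2 (0.20) and Ikbke (0.23), of the same list, were not called.

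Of 14 genes that act on the RNA cap, which IFIT1 reads, 2 passed the test. Cmtr1 rose, the enzyme that adds the first ribose methyl group to the cap, from 13.9 ± 1.92 TPM (SD, n = 5) to 23.4 ± 5.23 TPM (SD, n = 5), a log2 difference of 0.69 (standard error 0.16, adjusted p = 0.00997, limma). Dcp2, a decapping enzyme, was called higher at 0.60 (adjusted p = 0.0243, limma), a call lost without WT replicate 4 (0.57), WT replicate 5 (0.56), RhoB-/- replicate 1 (0.50) or the library labelled RhoB-/- replicate 5 (0.52). None of the 13 eIF3 subunit genes was called, and their differences ran from -0.47 to -0.18, with 6 of them at an adjusted p below 0.05 (limma) but a fold change under 1.5. Without RhoB-/- replicate 3, Eif3i was called lower (-0.61).

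Over the 8 lists together, 68 of 81 genes were tested and 19 (27.9%) rose, against the 5.58% of all tested genes, and 0 were lower, also at an unadjusted p below 0.05 in limma. The median difference of the 68 was 0.08, against -0.13 over all tested genes and 4.12 for the Ifit genes. Without the library labelled RhoB-/- replicate 5 the lists held 17 higher genes and 0 lower, Irf1 and Dcp2 being those lost. The lists were drawn up with earlier results of these data known, and the counts are a description of them.

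Among 23 tested genes of a list of other ISGF3 targets, 22 rose and 1, Isg20, did not pass, and the median was 2.92. Mx2 and Ifi44, with WT means of 0.496 and 0.316 TPM, passed the filter only through the RhoB-/- libraries, and 22 of 23 rose with no filter too. Isg15, a ubiquitin-like protein, rose the most, from 8.89 ± 2.83 TPM (SD, n = 5) to 434 ± 163 TPM (SD, n = 5), a log2 difference of 5.43 (standard error 0.27, adjusted p = 1.47e-07, limma). Oasl2 (4.92), Oas3 (4.65), Oas2 (4.45), Ifi44 (4.38) and Rtp4 (4.09) lay among the 4 Ifit genes that differed most or above them. Mx1 (1.09) and Samhd1 (1.12) rose the least. Isg20, an exonuclease, was at -0.50 (adjusted p = 0.0589, limma), and it was called lower without WT replicate 1 (-0.61) or RhoB-/- replicate 4 (-0.62).

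**Figure D5:**
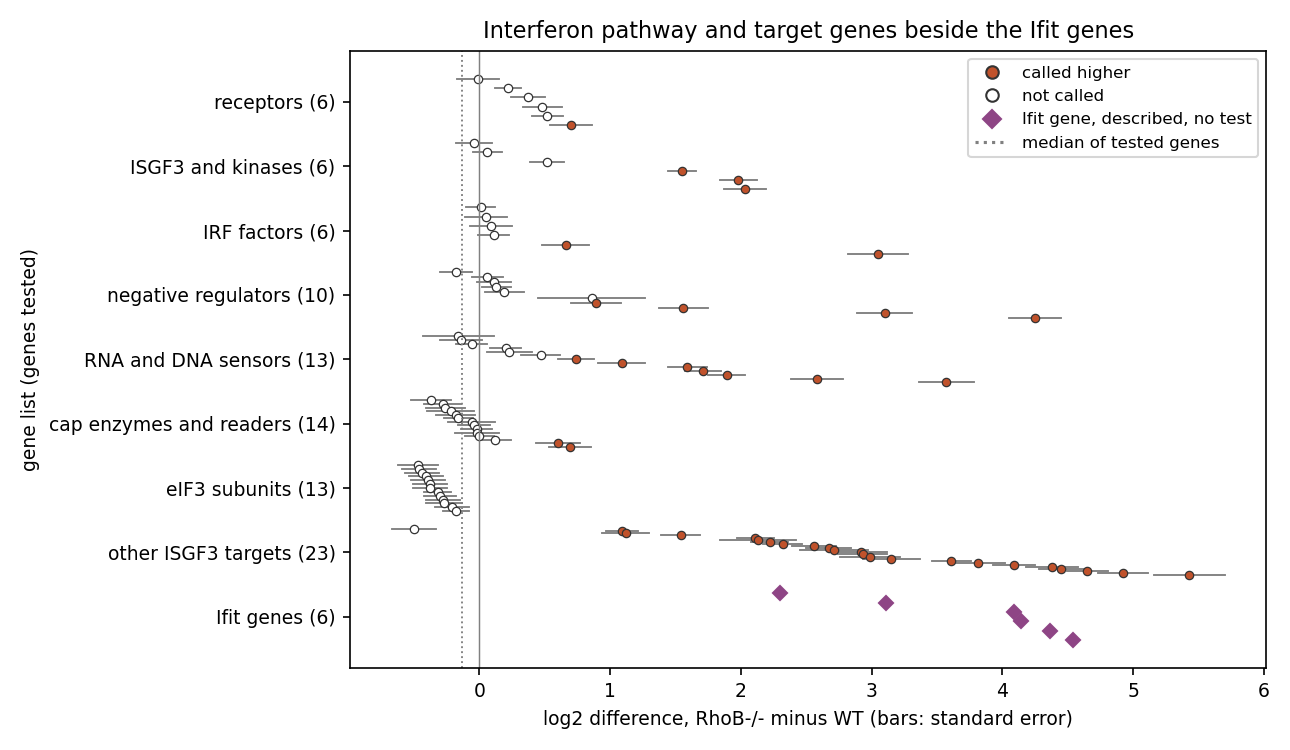
Log2 difference (RhoB-/- minus WT) with its standard error for each tested gene of 8 lists, called genes filled, and the 6 Ifit genes as diamonds with no test. The dotted line is the median of all tested genes (-0.13). The list of ISGF3 and its kinases reaches 2.03, sensors 3.57 and negative regulators 4.25, while the eIF3 subunits stay between -0.47 and -0.18.

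Most tested leukocyte markers were also higher in RhoB-/- libraries, whereas 7 of 9 stromal markers were below the filter. The TPM of 18 leukocyte markers summed to 13.3 to 23.9 in WT and 66.5 to 80.2 in RhoB-/- libraries, and 8 of the 9 tested rose: Ptprc, Cd3e, Cd3g, Cd8a, Gzma, Gzmb, Nkg7 and Cd68. Cd8a and Cd68, with WT means of 0.832 and 0.988 TPM, passed the filter only through the RhoB-/- libraries, and with no filter the count was 8 of 18. Gzma, a granzyme of T and NK cells, rose from 4.23 ± 1.87 TPM (SD, n = 5) to 24.0 ± 2.25 TPM (SD, n = 5), a log2 difference of 2.32 (adjusted p = 1.81e-05, limma). None of the 18 was at 0 in all 10 libraries, S100a8 was at 0 in 7, and Siglech, a marker of plasmacytoid dendritic cells, was at most 0.19 TPM. The sum was 79.3, 67.4, 70.5, 66.5 and 80.2 TPM in RhoB-/- replicates 1 to 5, where the 6 Ifit genes summed to 404.79, 405.93, 349.50, 584.22 and 753.55 TPM. The library labelled RhoB-/- replicate 5 was the highest in both sums, and RhoB-/- replicate 4 was the lowest in the first and next to highest in the second. Stromal markers summed to 4.15 to 5.13 TPM in WT and 6.26 to 36.5 TPM in RhoB-/-, the highest being the library labelled RhoB-/- replicate 5, and of 2 tested genes Dcn was called higher (2.02 TPM in WT and 9.74 TPM in RhoB-/- on average, adjusted p = 0.0202, limma), a call lost with no filter on TPM (adjusted p = 0.0634, limma). Of 10 epithelial markers, Krt20 rose by 1.17 (adjusted p = 0.00224, limma) and Vil1 by 0.65 (adjusted p = 0.00638, limma), the latter lost without the library labelled RhoB-/- replicate 5 (0.54) or after quantile normalization (0.58). The part of these cells in the Ifit levels was not tested.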

How the data were processed

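IEC RNA of 5 WT and 5 RhoB-/- libraries, grouped by the genotype in their labels, had been sequenced as paired reads. The deposited TPM values were made by the authors, who trimmed and aligned the reads (HISAT2) and quantified genes with RSEM. The submitters' processing notes name GRCm38.p6, StringTie and edgeR too, and tool versions are not given in the sources used here. TPM is relative within a library, so a strongly expressed gene lowers the others, and it keeps no depth.

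Genes with a mean of at least 1 TPM (12870 of 55487) were fitted on log2(TPM + 1) with limma 3.58.1 in R 4.3.3 (lmFit, eBayes with trend, no covariates), and called at a Benjamini-Hochberg adjusted p below 0.05 and a fold change above 1.5. No 2 libraries were identical. Some list genes are counted but not reported here by name. The named genes are the Ifit members, Rhob, genes of the hand-made lists and the 5 genes most like the members. The members and lists were chosen with earlier results of these data known. Sequence comparisons used Biopython 1.88, GENCODE M21 and RefSeq promoter windows, which held all 6 members. Replicate numbers were not used to pair the samples in the main fit. The alternatives tried are given in the closing section.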

Additional observations from a re-analysis of the deposited data

Results flagged for a closer look

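The values of the 6 Ifit genes, their sum and Rhob were looked at in each group of 5 libraries for 1 library standing apart from the other 4 by Dixon's criterion. Of 16 groups examined 4 held such a value. The rate of about 1 in 20 by chance holds for independent, normally distributed values. These groups are not independent, since the sum holds the 6 genes and Ifit3 and Ifit3b vary together. The count therefore cannot show an excess over chance. Ifit2 was 45.54 TPM in the library labelled RhoB-/- replicate 5, where the other RhoB-/- libraries were at 19.57 to 25.49 TPM. Ifit3 was 2.36 TPM and Ifit3b 0.99 TPM in WT replicate 3, and reads could be split between these 2 genes. Rhob was 110.87 TPM in the library labelled RhoB-/- replicate 5.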

How the results depend on the processing

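The differences of the 6 Ifit genes and their median were above 0 in all 122 values computed under the alternatives, and 5 of these moved by over 1 SD. The family was chosen for being higher in RhoB-/-, so the sign of these values is no test. Filters on mean TPM and the replicate block leave each member's difference unchanged by construction. With a pseudocount of 0.1 the median was 4.67 (4.12 with 1), and Ifit2, Ifit3 and Ifit3b stood at 5.43, 5.06 and 4.37. Adding Ifit3 and Ifit3b up gave 4.41. Leaving out 1 library gave medians of 3.93 to 4.22. Of 72 counts, 67 stayed within 1.5 times. The 918 lower genes became 548 at a mean of at least 5 TPM, 469 after recentring on the median, which shifts all differences by 0.13, 581 after quantile normalization and 1471 without mitochondrial genes. With no filter on TPM 674 genes were higher and 717 lower, and 17 of the lists were higher, with Irf1 (adjusted p = 0.0532, limma), Dcp2 (adjusted p = 0.0586, limma) and the stromal marker Dcn no longer called. At an unadjusted p below 0.05 the counts were 820 and 1072. Recentring gave 949 higher genes, and 23 rather than 19 of the pathway lists, adding Ifngr1, Ifngr2, Jak2 and Tbk1. Without mitochondrial genes 17 of the lists were higher, Irf1 and Dcp2 being lost, and Lipa and Vil1 were no longer called, Vil1 also after quantile normalization (0.58). Leaving out 1 library gave 0 to 1 lower genes in the lists. With a replicate block 715 genes were higher and 812 lower, and the median Ifit difference of 4.12 could not change. Same-numbered libraries deviated together with r of -0.09 to 0.07, which shows no clear pairing by number but cannot exclude a weak one. Only the libraries of replicate 3 (r = 0.07) were each other's best match. The depth behind each TPM is unknown, which limits the WT levels of Ifit2 and Ifit3b most.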
